A study of Mus musculus with 10 samples.

Results

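Chromatin loops at 8 genes that import arginine, split it, oxidise it or rebuild it were described in mouse bone marrow-derived macrophages. The genes were the cationic amino acid transporters *Slc7a1* and *Slc7a2*, the arginases *Arg1* and *Arg2*, the inducible nitric oxide synthase *Nos2*, the recycling enzymes *Ass1* and *Asl*, and ornithine decarboxylase *Odc1*. They were chosen by function, but with earlier results of these data known, so shares over all genes are given below as background only. They are 8 of the 21755 protein-coding genes placed on the autosomes and X. A loop belonged to a gene when either of its 10 kb anchor bins overlapped the 100 kb on each side of the transcription start site (TSS) given by GENCODE M21 on GRCm38.

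All cells came from wild type female C57BL/6 mice, 2 to 3 months old, and were grown with M-CSF at 20 ng/ml before treatment on day 6. M0[CTR] cells stayed untreated, and M2[IL-4] cells were exposed to IL-4 (20 ng/ml) for 24 h. M2p[pIL-4] cells had the same exposure, then a wash and 24 h of rest. IFNG cells were exposed to IFNG (20 ng/ml) for 3 h without priming, and pIL-4 + IFNG cells were primed with IL-4, rested and then given IFNG in the same way. Where 5 numbers follow each other, they stand in this order. Hi-C, in which DNA segments close to each other in the nucleus are ligated and sequenced, was run on 10 samples, 2 per group, and each group had 1 loop list in which its replicates were merged. The lists held 53424 (M0[CTR]), 58260 (M2[IL-4]), 67728 (M2p[pIL-4]), 55012 (IFNG) and 67000 (pIL-4 + IFNG) loops, with a median of 32 contacts per loop in each. With 1 list per group there was no replicate check of any difference below, and intervals cover counting error only. Intervals of loop numbers treat each pair of bins as independent. Touching pairs often are not, so these intervals are too narrow. A pair of bins missing from a list was not called there, which does not mean that it had no contacts. The lists hold no expression values, so the labelled cell type could not be checked against marker genes.

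Arginine is the substrate of competing enzymes in macrophages. ARG1 in the cytosol and ARG2 in mitochondria hydrolyse it to ornithine and urea, and ODC1 turns ornithine into putrescine, the first polyamine. NOS2 oxidises arginine to nitric oxide and citrulline, and ASS1 and ASL convert citrulline back to arginine. SLC7A1 is the widely expressed importer of arginine and SLC7A2 the inducible one. *Arg1* is the classic marker of IL-4-treated mouse macrophages and *Nos2* of those given inflammatory stimuli such as IFNG.

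Sequence at the strongest loop called in all lists near each gene is shown first. Near each gene, the loop called in all 5 lists with the highest count relative to its span was searched for the CTCF core consensus, a motif of 14 letters, on both strands with at most 1 mismatch. CTCF is the DNA-binding protein that halts loop extrusion, most often where a pair of its motifs point towards each other. In 5 of the 8 loops, those of *Slc7a1*, *Slc7a2*, *Arg2*, *Nos2* and *Ass1*, the lower-coordinate anchor held a plus-strand match and the other anchor a minus-strand match. That arrangement was found in 25.8% of the 5061 bin pairs called in all 5 lists with a median count relative to span at least as high as the lowest of these 8, and in 7.90% of the 153263 bin pairs called in any list. The reverse arrangement was found in 1 of the 8 loops, at *Ass1*, where both anchors held both strands, and in 4.31% of those 5061 pairs. A match of either kind lay in 21.4% of all 255946 bins and in 31.3% of the 70650 bins that were an anchor in any list. Each sequence below is read 5′ to 3′ on the strand of the match from GRCm38, with the match in capitals between 8 bases on each side.
Nos2 upstream anchor, chr11:78856419-78856448, plus: ggctgtgaCCACTAGGTGGCAGcatggagg
Nos2 gene anchor, intron of Nos2, chr11:78956439-78956468, minus: cacaacggCCACCAGAGGGCAAcctgtgag
Slc7a2 downstream near anchor, intron of Pdgfrl, chr8:40961874-40961903, plus: cataatgaCCACTAGGTGGCAGgctttacc
Slc7a2 downstream far anchor, intron of Mtus1, chr8:41043706-41043735, minus: ccaggtggCCACCAGGGGGCAGatgatgct
Arg2 far upstream anchor, chr12:78918407-78918436, plus: cagagtggCCACTAGAGGGCAAccaaacct
Arg2 near upstream anchor, chr12:79092695-79092724, minus: ccacccagCCACTAGGGGGCAGcaaggact
Slc7a1 gene anchor, intron of Slc7a1, chr5:148332763-148332792, plus: gttttccaCCACTAGGTGGCATcagagtac
Slc7a1 upstream anchor, chr5:148794680-148794709, minus: agtgacgtCCGCCAGGGGGCGCccttgttc
Ass1 gene anchor, intron of Ass1, chr2:31483109-31483138, plus: atatatggCCACTAGAGGGCACcagaggct
Ass1 downstream anchor, exon of Prdm12, chr2:31655423-31655452, minus: ttgaaatgACACCAGAGGGCGCccacggac
Arg1 upstream hub, intron of Akap7, chr10:25219337-25219366, minus: accagtggCCAGCAGGGGGCTCtgttccac
Odc1 downstream near anchor, chr12:17554291-17554320, plus: ggtcacggCCACCAGGGGGCAGcagcatct
At *Arg1* only the anchor in *Akap7* held matches, 2 of them and both on the minus strand, and at *Odc1* all matches in both anchors were on the plus strand. At *Asl* only the anchor away from the gene held matches. No match says only that these letters were not found in that bin.

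The STAT6-type palindrome (TTCNNNNGAA) was also searched, as a site of the kind bound by the factor that IL-4 activates. It occurred in 95.3% of all 10 kb bins, so its presence in an anchor distinguishes nothing. Over the 300 bases around a RefSeq start (250 before and 50 after, GRCm38.p6), 3 of the 8 genes had an entry, *Slc7a1*, *Ass1* and *Odc1*. None of their windows held the STAT6-type palindrome, against 6.95% of 32851 windows.

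Over all 8 genes there were 183 loops in untreated cells, 219 with IL-4, 217 after rest, 194 with IFNG alone and 267 in primed cells given IFNG. As a share of each list this was 0.343%, 0.376%, 0.320%, 0.353% and 0.399%, lowest in the rested cells and highest in the primed cells given IFNG. The genes differed widely in how many loops they held: summed over the lists, *Nos2* had 287 and stood at the 94.1th percentile of protein-coding genes, while *Slc7a2* had 29 and stood at the 45.9th. All 8 passed the filter of 10 or more loops over the lists, as did 14611 genes in all.

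**Figure D1:**
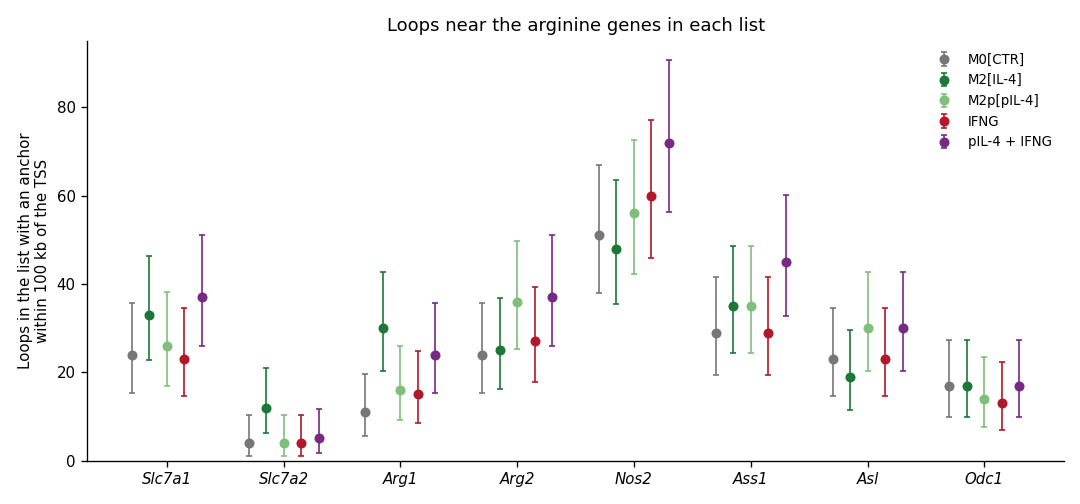
Number of loops with an anchor within 100 kb of the TSS (y axis) for each gene (x axis) in each of the 5 merged lists, with 95% Poisson intervals that cover counting error only. *Arg1* had 30 loops in M2[IL-4] against 11 in M0[CTR], *Slc7a2* 12 against 4, and *Nos2* had its highest number, 72, in pIL-4 + IFNG.

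To compare lists of unequal length, loop numbers were scaled to the mean list length and 1 was added, and a gene was called where the ratio reached 2-fold. Between M2[IL-4] and M0[CTR], 2 of the 8 genes were called higher, *Arg1* and *Slc7a2*, and none lower; over all genes tested, 4.91% were called higher and 4.16% lower. Between M2p[pIL-4] and M2[IL-4] the same 2 genes were called lower and none higher, with 2.1% of all genes lower and 4.18% higher. Between M2p[pIL-4] and M0[CTR] none of the 8 was called, with 4.75% of genes higher and 1.58% lower. These 3 comparisons share lists, and an M2[IL-4] list that is rich at a gene raises the first ratio and lowers the second.

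For IFNG against M0[CTR] none of the 8 genes was called in either direction, with 5.78% of genes called higher and 3.89% lower. For pIL-4 + IFNG against M2p[pIL-4] none was called (3.01% of genes higher, 2.11% lower), although the log2 ratio was above 0 for all 8 genes, with a median of 0.32 against 0.014 over all genes, 55.1% of which were above 0. With touching bin pairs merged into 1 loop, it was above 0 for 5 of the 8, not for *Arg1*, *Arg2* and *Slc7a1*, and the median was 0.0088. For pIL-4 + IFNG against IFNG none was called (3.89% higher, 1.74% lower), and the ratio was above 0 for 7 of the 8, with a median of 0.13 against 0.0046 over all genes, 50.2% of which were above 0; *Nos2* was the exception at -0.02. The last 2 comparisons share the pIL-4 + IFNG list.

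**Figure D2:**
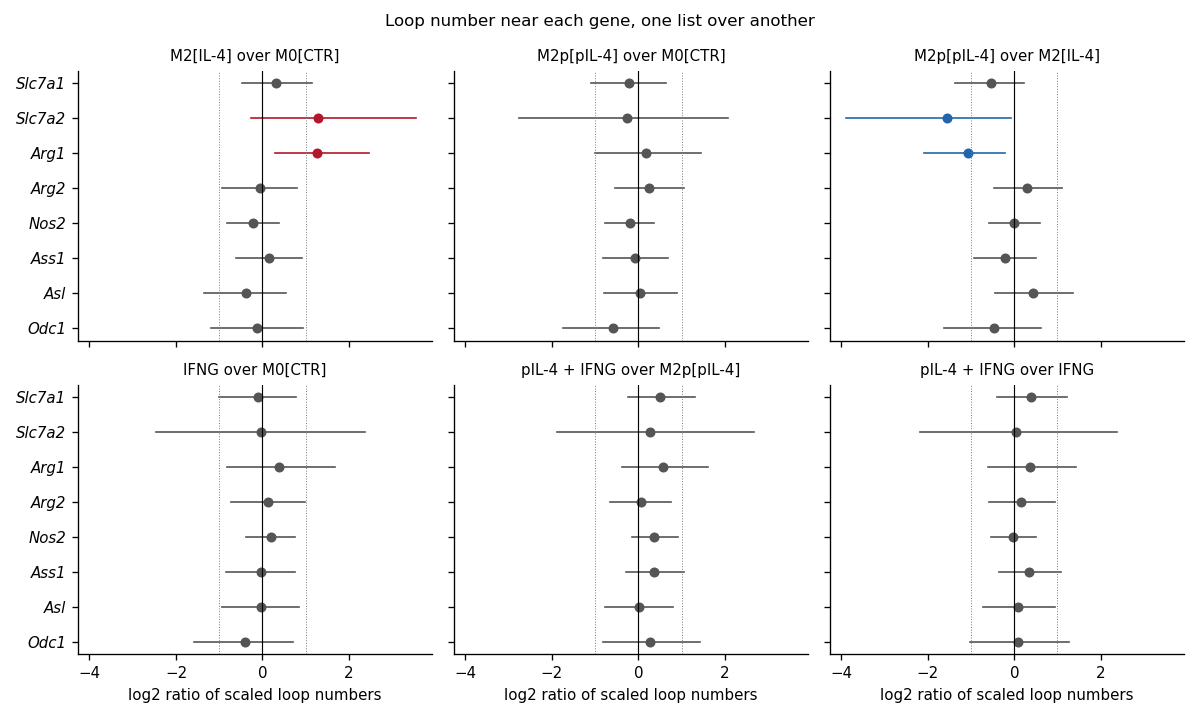
Log2 ratio of loop numbers scaled to the mean list length, with 1 added (x axis), for each gene in 6 comparisons of 1 list with another; dotted lines mark 2-fold. Horizontal lines are 95% intervals of the ratio without the added 1, from exact binomial intervals of the counts, and red and blue mark genes called higher and lower: *Arg1* and *Slc7a2*, in the M2[IL-4] over M0[CTR] and M2p[pIL-4] over M2[IL-4] panels.

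Contacts were compared separately, at pairs of bins called in both lists of a comparison, by a two-sided exact binomial test with Benjamini-Hochberg adjustment over all genes tested. This test compares the 2 merged libraries and not their conditions. No member passed an adjusted p of 0.05 in any of the 6 comparisons. Few genes did at all: 0.0151% of 13287 for M2[IL-4] against M0[CTR], 0% for M2p[pIL-4] against M0[CTR], 0% for M2p[pIL-4] against M2[IL-4], 0.0911% of 13169 for IFNG against M0[CTR], 0.0215% of 13930 for pIL-4 + IFNG against M2p[pIL-4], and 0% for pIL-4 + IFNG against IFNG. At an unadjusted p under 0.05 the test held 597, 416, 316, 504, 473 and 306 genes in the same order of comparisons. Among the 8 genes these were *Arg1* and *Arg2* in the first, *Asl* in the second, *Arg1* and *Arg2* in the third, *Nos2* in the next 2 and none in the last.

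*Slc7a1* (chr5:148327410-148399904, minus strand) encodes the constitutive arginine importer. It had 24 loops in untreated cells, 33 with IL-4, 26 after rest, 23 with IFNG alone and 37 in primed cells given IFNG. The 2 highest numbers were those of the M2[IL-4] and pIL-4 + IFNG lists, but the Poisson intervals of all 5 overlapped. The log2 ratio was -0.54 for M2p[pIL-4] over M2[IL-4] and 0.51 for pIL-4 + IFNG over M2p[pIL-4], both under 2-fold. Within 25 kb of the TSS it had 5, 10, 2, 1 and 6 loops and passed 2-fold in 5 of the 6 comparisons, all but M2[IL-4] over M0[CTR].

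The 2 bins that took part in the most of its 83 bin pairs, 17 and 16, lay -395.1 and -405.1 kb from the TSS. Neither holds a protein-coding gene. An anchor lay on the gene itself in 11, 17, 13, 9 and 22 of the loops in the 5 lists. The loop from the 3′ part of the gene (+64.9 kb) to -395.1 kb was the strongest of those called in all lists and had 15, 17, 23, 23 and 27 contacts. It was lowest in M0[CTR] (interval 8.40 to 24.7) and highest in pIL-4 + IFNG (17.8 to 39.3), in overlapping intervals. The TSS bin itself was an anchor in 1 loop only, to -395.1 kb in M2[IL-4], with 17 contacts.

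*Slc7a2* (chr8:40862396-40922308, plus strand) encodes the inducible arginine importer and had the fewest loops of the 8 genes. It had 4 loops in untreated cells, 12 with IL-4, 4 after rest, 4 with IFNG alone and 5 in primed cells given IFNG. The M2[IL-4] list alone stood apart, but its interval of 6.20 to 20.96 overlapped that of 1.09 to 10.2 in M0[CTR]. The log2 ratio of M2[IL-4] over M0[CTR] was 1.28, which was rank 372 from the highest of 14611 genes. Without the added 1 it was 1.46, with an interval of -0.26 to 3.55 that included 0. M2p[pIL-4] over M2[IL-4] gave -1.56, rank 71 from the lowest, and without the added 1 gave -1.80 (-3.89 to -0.08). With 5 added in place of 1, the first ratio was 0.87 and no longer reached 2-fold.

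The loops of this gene fell into 2 sets. The first ran from the gene and its close surroundings to bins inside *Mtmr7*, a phosphoinositide phosphatase gene, -257.4 to -287.4 kb from the TSS. This set had 0 loops in untreated cells, 8 with IL-4, 1 after rest, 0 with IFNG alone and 2 in primed cells given IFNG. All 9 of its bin pairs were thus called only in lists of cells that had received IL-4, with no test of that difference. Such pairs were common at the other genes, as most lists are of this kind. They made up 10 of 16 pairs at *Slc7a2*, 31 of 51 at *Arg1*, 61 of 108 at *Ass1* and 45 of 83 at *Slc7a1*. At *Arg2* they were 30 of 67, at *Odc1* 15 of 35, at *Nos2* 51 of 131 and at *Asl* 15 of 49. The share over all bin pairs was not computed, so none of these counts can be read as particular to a gene. The sets were drawn after the locus had been seen.

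In M2[IL-4], the 2 loops of the *Slc7a2* TSS bin both belonged to this first set, reaching -277.4 and -287.4 kb with 18 contacts each (interval 10.7 to 28.4). The strongest of the set joined -257.4 to -17.4 kb and had 25 contacts, also only in M2[IL-4]. After rest, the single loop ran from -277.4 to +32.6 kb with 18 contacts, at a pair of bins that had 17 in M2[IL-4]. The pIL-4 + IFNG loops ran from -277.4 kb to -7.4 kb (20 contacts, 21 in M2[IL-4]) and to +12.6 kb (17 contacts, in no other list).

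These counts lie low among called loops. At spans of 240 to 330 kb the median called loop had 23 or 24 contacts in each list, and the 5th percentile was 16. A pair with slightly fewer contacts could thus fall out of a list, and the contacts of the uncalled lists were not analysed here.

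The second set joined *Pdgfrl*, at +102.6 kb in 6 of its 7 bin pairs and so at the very edge of the window, to *Mtus1* and beyond. It had 4, 4, 3, 4 and 3 loops in the 5 lists in the same order, and it included the convergent pair of exact CTCF matches printed above. That pair of anchors (+102.6 to +182.6 kb) had 75 contacts in untreated cells, 56 with IL-4, 74 after rest, 65 with IFNG alone and 70 in primed cells given IFNG. It was lowest in M2[IL-4] (interval 42.3 to 72.7), which overlapped M0[CTR] (59.0 to 94.0). With a window of 50 kb, which drops this second set, *Slc7a2* had 0, 7, 1, 0 and 2 loops.

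**Figure D3:**
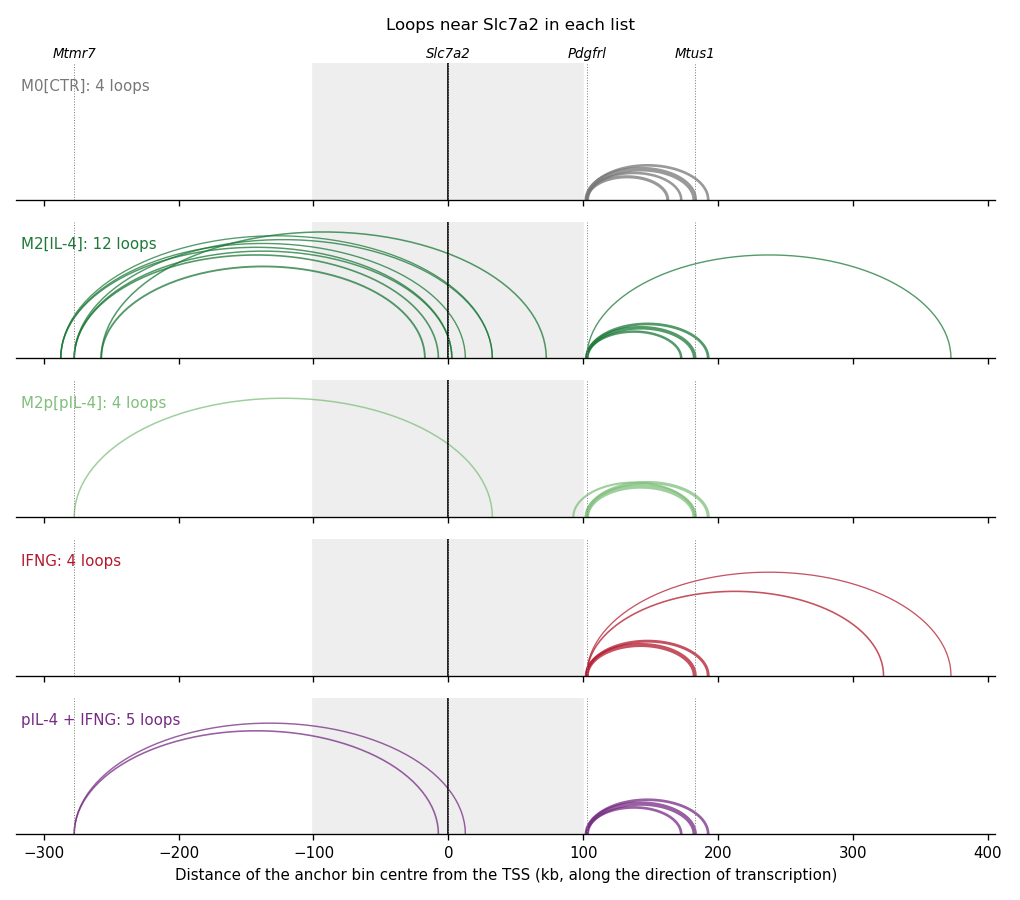
Each arc joins the anchor bins of 1 loop near *Slc7a2* by distance from its TSS in kb (x axis); line width follows contacts, arc height follows span, and the shaded band is the 100 kb window. The arcs to *Mtmr7* number 8 with IL-4, 1 after rest and 2 in primed cells given IFNG, while those between *Pdgfrl* and *Mtus1* appear in every list.

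*Arg1* (chr10:24915221-24927484, minus strand) encodes the cytosolic arginase. It had 11 loops in untreated cells, 30 with IL-4, 16 after rest, 15 with IFNG alone and 24 in primed cells given IFNG. M2[IL-4] was highest and its interval (20.2 to 42.8) lay above that of M0[CTR] (5.49 to 19.7). Many of the pairs of bins touch and are not independent, so these intervals and those of the ratios below are too narrow. The log2 ratio of M2[IL-4] over M0[CTR] was 1.26 (rank 454 from the highest of 14611), and without the added 1 it was 1.32 (0.28 to 2.47). After rest, M2p[pIL-4] over M2[IL-4] gave -1.07 (rank 255 from the lowest), and without the added 1 gave -1.12 (-2.10 to -0.20). The pIL-4 + IFNG list held the second highest number, log2 0.57 over M2p[pIL-4] and 0.37 over IFNG, neither reaching 2-fold. The lower number after rest stayed short of 2-fold with unscaled loop numbers (-0.87), with lists of equal length (-0.81), with 5 added in place of 1 (-0.91) and within 25 kb of the TSS (-0.85).

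The 51 bin pairs of *Arg1* had 1 shape in all lists. No loop had both anchors inside the window, and 50 of the 51 pairs joined it to bins of *Akap7*, a gene for a kinase anchoring protein, between -247.5 and -327.5 kb. The bin at -287.5 kb, which holds the 2 minus-strand CTCF matches, took part in 14 of the pairs: 5 loops in untreated cells, 8 with IL-4, 7 after rest, 7 with IFNG alone and 10 in primed cells given IFNG. *Enpp3* and *Med23* also have their TSS in the window, and the loops at +52.5 and +62.5 kb end in or at the start of *Med23*.

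The additional loops of M2[IL-4] lay between the same places as those of M0[CTR]. Only 2 of its 30 loops had no M0[CTR] loop within 25 kb at both anchors, although 23 of the 30 were not called in the same bins. Of those 23, 5 were called in the same bins in M2p[pIL-4]. Where touching bin pairs were merged into 1 loop, *Arg1* had 4, 6, 6, 4 and 5 loops in the 5 lists in the same order, and the ratios were 0.39 for M2[IL-4] over M0[CTR] and -0.12 for M2p[pIL-4] over M2[IL-4], both short of 2-fold. Merging also turned pIL-4 + IFNG over M2p[pIL-4] at *Arg1* from 0.57 to -0.21. At *Slc7a2*, in contrast, 9 of the 12 M2[IL-4] loops had no M0[CTR] loop within 25 kb, and the merged numbers were 1, 6, 2, 3 and 3.

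Loops from the bins between 20 and 50 kb upstream of the *Arg1* TSS to *Akap7* numbered 3 in untreated cells, 12 with IL-4, 9 after rest, 7 with IFNG alone and 10 in primed cells given IFNG. This block was outlined after the locus had been seen. The strongest loop called in all lists (-37.5 to -287.5 kb) had 25, 46, 35, 30 and 42 contacts, and its neighbour (-27.5 to -287.5 kb) had 30, 41, 26, 31 and 42. M2[IL-4] and pIL-4 + IFNG held the 2 highest counts in both. For the first, the fold of M2[IL-4] over M0[CTR] was 1.84 (interval 1.11 to 3.13), not adjusted for the number of loops. That loop was picked by its highest list, M2[IL-4], so the fold is partly a result of the choice. The loop from the bin at +52.5 kb, in *Med23*, to the same hub had 21, 25, 30, 28 and 22 contacts, highest in M2p[pIL-4].

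The TSS bin of *Arg1* was an anchor in 2 loops, neither of them in M2[IL-4]. One reached -297.5 kb in IFNG with 21 contacts, and the other -287.5 kb in pIL-4 + IFNG with 32. At the 7 bin pairs near *Arg1* called in both M2[IL-4] and M0[CTR], contacts were 220 and 168, log2 0.39 (0.09 to 0.69). The exact binomial p was 0.00928 and the adjusted p 0.607. At the 11 pairs shared by M2p[pIL-4] and M2[IL-4] they were 273 and 330, log2 -0.32 (-0.55 to -0.08), with an exact binomial p of 0.00832 before adjustment.

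**Figure D4:**
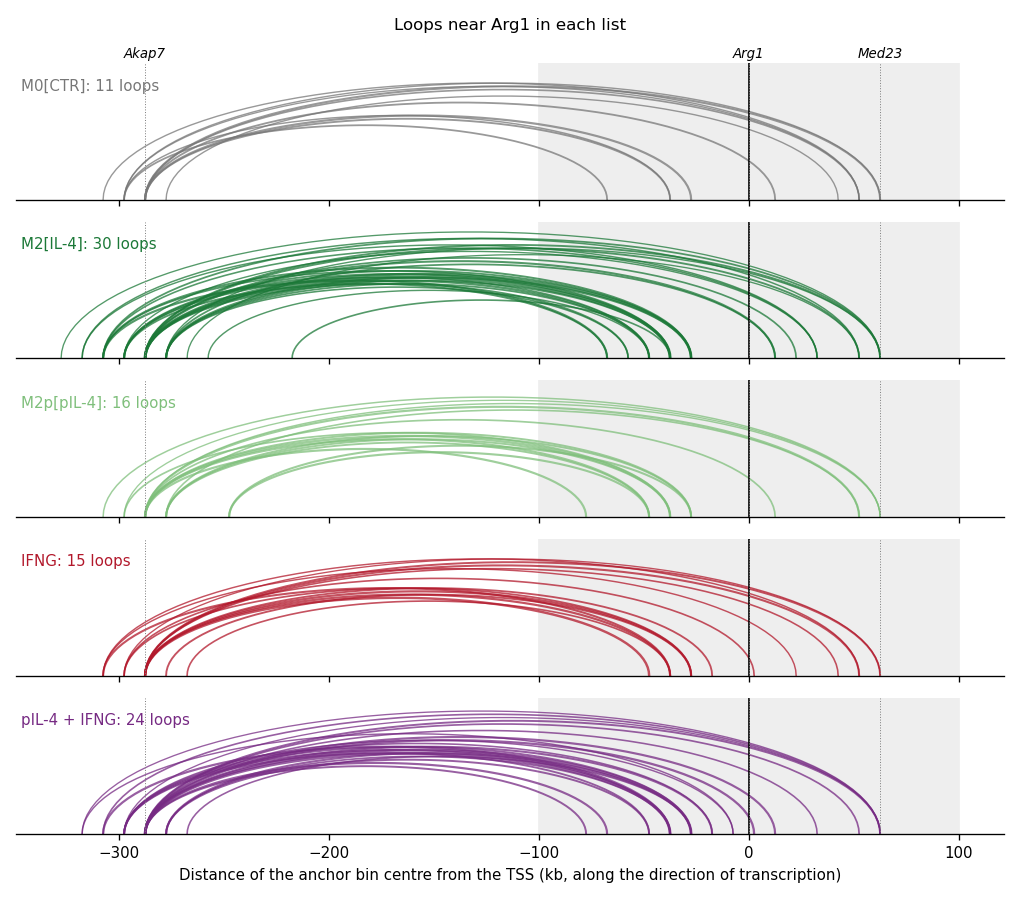
Each arc joins the anchor bins of 1 loop near *Arg1* by distance from its TSS in kb along the direction of transcription (x axis); line width follows contacts, arc height follows span, and the shaded band is the 100 kb window. The arcs end in *Akap7* except 1 in M2[IL-4], and they number 11, 30, 16, 15 and 24 from top to bottom.

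*Arg2* (chr12:79130777-79156301, plus strand) encodes the mitochondrial arginase. It had 24 loops in untreated cells, 25 with IL-4, 36 after rest, 27 with IFNG alone and 37 in primed cells given IFNG. The 2 longest lists held the most, and no ratio of the single bin pairs reached 2-fold. With touching bin pairs merged, *Arg2* had 6, 4, 10, 6 and 9 loops, and M2p[pIL-4] over M2[IL-4] was 1.01, past 2-fold. M2[IL-4] over M0[CTR] was -0.06 for the single bin pairs, in contrast to 1.26 for *Arg1*, and the difference between the 2 genes was not tested.

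Most loops had both anchors upstream of the gene: 23, 24, 29, 25 and 34 in the 5 lists. The bins at -25.8, -35.8 and -45.8 kb took part in 14, 12 and 11 of the 67 bin pairs, the last of them at the start of *Pigh*. The convergent pair printed above (-215.8 to -35.8 kb) had 63, 55, 57, 59 and 72 contacts, in overlapping intervals. The TSS bin was an anchor in 2 bin pairs, each called in 1 list. They ran to *Plek2* at -235.8 kb with IFNG alone (33 contacts) and to -215.8 kb in primed cells given IFNG (31 contacts). Both lists were of cells given IFNG, as at *Arg1*, where the 2 calls also fell on different bin pairs. The share of all genes with such calls was not computed, and a link of these single calls to IFNG was not tested. A loop from -235.8 to -25.8 kb was called only in the 2 lists of cells given IFNG. It had 33 contacts with IFNG alone and 59 in primed cells given IFNG. Contacts at the 15 pairs shared by M2[IL-4] and M0[CTR] were 628 and 726, log2 -0.21 (-0.36 to -0.05), with an exact binomial p of 0.0088 and an adjusted p of 0.601.

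*Nos2* (chr11:78920787-78960254, plus strand) encodes the inducible nitric oxide synthase and had more loops than any of the other genes in each list. It had 51 loops in untreated cells, 48 with IL-4, 56 after rest, 60 with IFNG alone and 72 in primed cells given IFNG. The IFNG lists were highest, but with ratios well under 2-fold: log2 0.19 (without the added 1, 0.19 with an interval of -0.37 to 0.76) for IFNG over M0[CTR] and 0.37 (0.38, -0.15 to 0.91) for pIL-4 + IFNG over M2p[pIL-4]. Of its 131 bin pairs, 16 were called in all 5 lists.

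One loop joined a bin with no protein-coding gene, -65.8 kb from the TSS, to the 3′ part of *Nos2* at +34.2 kb, enclosing the promoter between convergent CTCF matches. It had 67 contacts in untreated cells, 74 with IL-4, 80 after rest, 104 with IFNG alone and 119 in primed cells given IFNG. The lists without IFNG lay between 67 and 80 and the lists with it at 104 and 119. The fold of IFNG over M0[CTR] was 1.51 (interval 1.1 to 2.08) and that of pIL-4 + IFNG over M2p[pIL-4] was 1.51 (1.13 to 2.03), not adjusted for the number of loops. Between pIL-4 + IFNG and IFNG it was 1.16 (0.885 to 1.52), an interval that includes 1.

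The neighbouring loop from *Lyrm9* (-75.8 kb) to the same bin of *Nos2* had 72, 70, 62, 67 and 94 contacts. Here pIL-4 + IFNG alone was high, and the fold over IFNG was 1.42 (1.03 to 1.98), not adjusted for the number of loops. The strongest loops were picked by their highest list, so a high count in 1 list is partly a result of that choice. From -65.8 kb to the TSS bin there were 56, 52, 64, 69 and 65 contacts, within overlapping intervals, in the 1 loop of the TSS bin that all lists called. The strongest loop on the other side, from *Ksr1* (+94.2 kb) to +294.2 kb, had 50, 42, 47, 67 and 39 contacts. It was highest in IFNG and lowest in pIL-4 + IFNG, with a fold of 0.591 (0.388 to 0.89) between them. That fold was not adjusted either, and the same choice affects it.

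**Figure D5:**
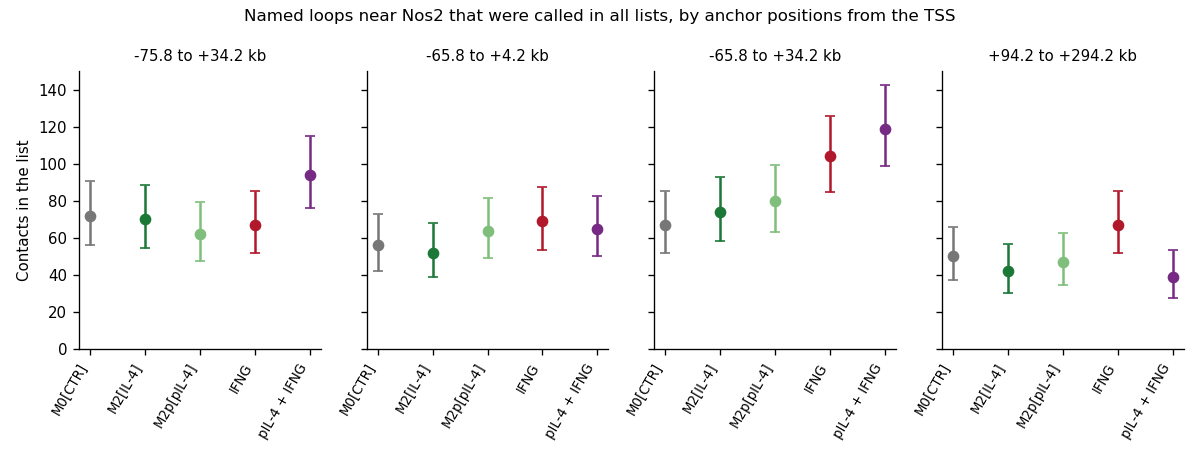
Contacts (y axis) in each list (x axis) with 95% Poisson intervals at the 4 named loops near *Nos2* that were called in all 5 lists; each panel is headed by its anchors' distances from the TSS. In the panel from -65.8 to +34.2 kb the lists with IFNG lie at 104 and 119 and the others between 67 and 80, while the panel ending at +4.2 kb, the TSS bin, runs from 52 to 69.

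Loops that joined the region 40 to 100 kb upstream to the first 50 kb downstream of the *Nos2* TSS numbered 11 in untreated cells, 12 with IL-4, 13 after rest, 18 with IFNG alone and 18 in primed cells given IFNG. Of their 21 bin pairs 7 were in all 5 lists, and contacts at these 7 were 387, 382, 381, 457 and 508. Scaled by the contacts at all bin pairs shared by the 2 lists, the log2 ratio of IFNG over M0[CTR] was 0.20 (-0.002 to 0.40), an interval that includes 0. That of pIL-4 + IFNG over M2p[pIL-4] was 0.43 (0.24 to 0.63). This region was outlined after the locus had been seen, so its values are given with no test. Loops with both anchors downstream of the TSS were also most numerous in the lists with IFNG, at 16, 17, 20, 27 and 26. Contacts at their 5 pairs in all lists were 229, 219, 228, 263 and 215, lowest in pIL-4 + IFNG. Loops with an anchor over 200 kb upstream numbered 20, 19, 22, 13 and 22, lowest in IFNG. Contacts at their 4 pairs in all lists were 159, 158, 160, 164 and 169.

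In the test over all genes, the 31 pairs shared by IFNG and M0[CTR] near *Nos2* had 1476 and 1310 contacts, log2 0.13 (0.02 to 0.24), with an exact binomial p of 0.0197 before adjustment. The 33 pairs shared by pIL-4 + IFNG and M2p[pIL-4] had 1487 and 1348, log2 0.16 (0.05 to 0.27), with an exact binomial p of 0.00322 and an adjusted p of 0.577. Within 50 kb of the TSS instead of 100 kb, the latter comparison rested on 13 pairs with 793 and 638 contacts, log2 0.33 (0.18 to 0.49), and *Nos2* passed with an adjusted p of 0.0228 in the same exact binomial test over 11984 genes. In all, 8 of those 11984 genes passed. The same window gave 0.14 (-0.02 to 0.29) for IFNG over M0[CTR], which did not pass.

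*Ass1* (chr2:31470207-31520672, plus strand) encodes argininosuccinate synthase, the first step from citrulline back to arginine. It had 29 loops in untreated cells, 35 with IL-4, 35 after rest, 29 with IFNG alone and 45 in primed cells given IFNG. The pIL-4 + IFNG list was highest, log2 0.37 over M2p[pIL-4] and 0.34 over IFNG, under 2-fold. Its TSS bin was an anchor in 8 bin pairs over the lists, 1 more than the TSS bin of *Nos2*.

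The short loop from the TSS bin to *Hmcn2* (-35.2 kb) was called in all lists and had 54, 81, 65, 72 and 78 contacts. It was lowest in M0[CTR], and the fold of M2[IL-4] over M0[CTR] was 1.5 (1.05 to 2.16), not adjusted for the number of loops. A further loop to *Hmcn2* (-45.2 kb) was called in M2[IL-4] (73 contacts) and pIL-4 + IFNG (71 contacts) only. On the other side, the loop from inside *Ass1* (+14.8 kb) to *Prdm12* (+184.8 kb) had 71, 50, 52, 42 and 56 contacts, highest in M0[CTR]. The fold of IFNG over M0[CTR] was 0.574 (0.382 to 0.852) there, not adjusted for the number of loops. That loop was picked by its highest list, M0[CTR], so the fold is partly a result of the choice.

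*Asl* (chr5:130011258-130029247, minus strand) encodes argininosuccinate lyase, which releases arginine. Its TSS bin is shared with *Crcp*, whose start lies head to head with it, so their loops cannot be told apart. It had 23 loops in untreated cells, 19 with IL-4, 30 after rest, 23 with IFNG alone and 30 in primed cells given IFNG, in overlapping intervals. The strongest loop called in all lists, from *Crcp* to *Tpst1* (-15.8 to -105.8 kb), had 69, 58, 61, 53 and 47 contacts. Of 6 bin pairs with an anchor in the TSS bin, none was called in more than 3 lists.

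*Odc1* (chr12:17544794-17551505, plus strand) encodes the rate-limiting enzyme of polyamine synthesis. It had 17 loops in untreated cells, 17 with IL-4, 14 after rest, 13 with IFNG alone and 17 in primed cells given IFNG. The lists differed by at most 4 loops. Its loops ran downstream to *Hpcal1* and just past it: the loop from +10.2 to +250.2 kb had 49, 44, 61, 49 and 50 contacts, and that from +10.2 to +260.2 kb had 53, 38, 38, 39 and 42. The TSS bin reached the same place, +250.2 kb, in M0[CTR] (26 contacts), M2[IL-4] (30) and pIL-4 + IFNG (30).

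Few single bin pairs were called in all lists. Over the 8 genes, between 2 (*Slc7a2*) and 16 (*Nos2*) bin pairs per gene were called in all 5 lists, and at these pairs contacts near *Odc1* were 182, 169, 185, 167 and 185 while those near *Nos2* were 775, 759, 769, 884 and 892. Of the 219 M2[IL-4] loops near the genes, 30 had no M0[CTR] loop within 25 kb at both anchors, beside 13.6% of the whole list. Of those 30, 11 (36.7%, 95% Wilson interval 21.9 to 54.5) had a match in M2p[pIL-4], beside 46.7% over the whole list. With matches within 50 kb, 15 of 18 (83.3%) did, beside 52.2%, and *Slc7a2* went from 3 of 9 to 9 of 9. The 30 included 9 at *Slc7a2*, 8 at *Slc7a1* and 4 at *Nos2*, all 4 of the last with a match in M2p[pIL-4]. Of the 194 IFNG loops, 16 had no M0[CTR] match, beside 13% of the whole list, and 7 of the 16 were at *Nos2*. A match in pIL-4 + IFNG was found for 11 of the 16 (68.8%, 44.4 to 85.8), beside 50.3% over the whole list. The pIL-4 + IFNG and M2p[pIL-4] lists are the 2 longest, and a longer list offers more matches.

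The wider pathway was followed over 37 other genes of arginine, polyamine and nitric oxide metabolism, of which 31 had 10 or more loops over the lists. *Otc*, *Cps1* and *Ddah1*, of the urea cycle and of methylarginine breakdown, had 0 loops in all lists. For M2[IL-4] over M0[CTR], 1 of 31 was called higher and 0 lower. It was *Paox*, a polyamine oxidase, with 9, 21, 12, 6 and 9 loops in the 5 lists, highest in M2[IL-4] as at *Arg1* (log2 1.03).

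For IFNG over M0[CTR], *Pts*, which acts in the synthesis of the NOS cofactor tetrahydrobiopterin, was called higher (log2 1.24; 4, 3, 7, 11 and 9 loops). *Dhps*, which carries out the first step from spermidine towards hypusine, was called lower (-1.20, with 19, 11, 22, 8 and 18 loops). *Gch1*, the first enzyme of tetrahydrobiopterin synthesis, was called lower for pIL-4 + IFNG over M2p[pIL-4] (-1.23; 9, 9, 11, 7 and 4 loops). Spermidine synthase *Srm* was called lower for pIL-4 + IFNG over IFNG (-1.09; 6, 6, 5, 8 and 4 loops). None of the 31 was called in the comparisons of M2p[pIL-4] with M0[CTR] or M2[IL-4], and the medians of the 31 lay between -0.09 and 0.0055 in the 6 comparisons. These counts of 0 to 2 in 31 stand beside the background shares given above.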

How the data were processed

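Bone marrow-derived macrophages from 10 Hi-C samples in 5 groups were described through 1 deposited loop list per group. According to the methods, reads went through nf-core/hic and loops were called with HICCUPS on Knight-Ruiz balanced maps, in bins larger than those of the lists and under a false discovery rate limit. The submitters' processing notes name FastQC, Bowtie2, HiC-Pro, Juicer and HOMER with build mm10. The deposited lists hold 10 kb bins and whole-number contact counts with no apparent normalization and no false discovery rate, so whether that calling step made these lists could not be settled, and column meanings were read from the values. The lists give no sequencing depth, and p-values measure counting error between merged libraries.

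The 8 genes, the pathway list and the comparisons were chosen with earlier results of these data known. Named loops were those of a TSS bin, the 3 strongest per gene (count over the median at that span) and blocks outlined after seeing the loci. Strength was taken from the list where it was highest, so folds that involve that list are partly a result of the choice. Named pathway genes were those past 2-fold. Other genes only place an anchor. Poisson, Wilson and binomial (Clopper-Pearson) intervals are at 95%. The binomial test needed 10 or more contacts. Tested on simulated data for M2[IL-4] against M0[CTR] over 13287 genes, it called 191 of 200 genes seeded with a 1.5-fold change and 60 of 10732 unchanged ones. The seeded genes had 10 or more shared bin pairs, so this does not cover *Arg1* (7 pairs), *Slc7a2* (3) and *Ass1* (8). With so many changed genes, the adjustment was also more lenient than in the lists themselves. No loop ran past a chromosome end of GRCm38. Versions were scipy 1.17.1, numpy 2.4.6, matplotlib 3.10.9 and pandas 2.3.3 under Python 3.11.15. The other settings tried were windows of 50 and 25 kb, loops as listed, equal list lengths, merging of touching bin pairs, a pseudocount of 5, no filter, other scalings, no adjacent bins and other match distances. One motif that was searched is not reported here.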

Additional observations from a re-analysis of the deposited data

How the results depend on the processing

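No paired analysis was possible because the lists merge the replicates, and for the same reason edgeR, DESeq2 and leaving out a replicate were not run. No ratio past 2-fold changed its sign. Of 330 loop ratios recomputed for the genes, 39 did, all from ratios of at most 0.57 in size: 14 with merging, 10 within 25 kb, 7 within 50 kb, 5 with loops as listed and 3 with equal list lengths. In all, 323 stayed within the counting error of the value in the text. For M2[IL-4] against M0[CTR], 1 gene in place of 2 was called within 25 kb (*Arg1*; 7 genes could be tested, without *Slc7a2*), where touching bin pairs were merged (*Slc7a2*) and with a pseudocount of 5 (*Arg1*). For M2p[pIL-4] against M2[IL-4] it was 1 within 25 kb (*Slc7a1*), with loops as listed, with equal list lengths and with a pseudocount of 5 (*Slc7a2* in the last 3). With merging it was 2, with *Slc7a2* lower as before and *Arg2* higher in place of *Arg1* lower. For IFNG against M0[CTR] it was 2 within 25 kb (*Arg1* higher, *Slc7a1* lower) and 1 with merging (*Slc7a2*), in place of 0. Within 25 kb it was 1 for M2p[pIL-4] against M0[CTR] (*Slc7a1*), 2 for pIL-4 + IFNG against M2p[pIL-4] (*Arg1* and *Slc7a1*) and 1 for pIL-4 + IFNG against IFNG (*Slc7a1*), which also had 1 within 50 kb (*Slc7a2*). Over the comparisons, the share of all genes called higher was 4.11% to 6.97% and lower 2.48% to 6.75% within 25 kb, 3.73% to 6.37% and 2.15% to 5.67% within 50 kb, 2.62% to 5.30% and 2.28% to 4.37% with merging, 3.73% to 10.2% and 1.16% to 3.88% as listed, 3.85% to 5.92% and 3.87% to 5.78% with equal lengths, 0.452% to 1.14% and 0.11% to 0.513% with a pseudocount of 5, and 3.10% to 8.04% and 2.64% to 6.05% without the filter on loop number.

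Scaled by all contacts of each list, the contact test called 3, 6, 3, 0, 0 and 4 of the 8 genes in the order of the comparisons plotted. The total follows the number of loops in a list, so this scaling lowers the ratio of the longer list at every gene by construction, and 3230, 8833, 4203 and 8771 genes were called in the comparisons with 3, 6, 3 and 4. Within 50 kb it called 1, *Nos2*, for pIL-4 + IFNG against M2p[pIL-4], where 8 of all 11984 genes tested were called. Unmatched M2[IL-4] loops numbered 127 by the same bins and 18 within 50 kb, and 83.3% of the latter had a match in M2p[pIL-4]. Unmatched IFNG loops numbered 99 and 6, with 41.4% of the former found in pIL-4 + IFNG. The upstream *Slc7a2* loops that differed between lists hold 15 to 25 contacts.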

Other observations

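The genes whose loop numbers followed *Arg1* most closely over the 5 lists were named by the smallest root mean square difference of their centred log2 scaled numbers, among 12935 genes with 20 or more loops that lie over 1 Mb away. They were *Mtus2* (0.068; 5, 13, 7, 6 and 11 loops in M0[CTR], M2[IL-4], M2p[pIL-4], IFNG and pIL-4 + IFNG), *Tmem132b* (0.10; 2, 8, 3, 3 and 5 loops) and *Tmem67* (0.11; 2, 6, 3, 3 and 6 loops). For *Slc7a2* they were *Pamr1* (0.16; 12, 27, 12, 13 and 12 loops), *Mafk* (0.16; 17, 43, 23, 17 and 21 loops) and *Tada3* (0.18; 6, 14, 7, 7 and 7 loops). For *Nos2* they were *Clec1a* (0.022; 24, 23, 27, 28 and 35 loops), *Igsf8* (0.024; 50, 47, 54, 57 and 72 loops) and *Atp1a4* (0.025; 49, 45, 52, 56 and 70 loops). With 5 lists and this many candidates, close matches are found by number alone, and the values are a description.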
